A study of Mus musculus with 6 samples.

Results

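Zinc finger protein (ZFP) genes, as mouse nomenclature names them, were examined in Ink4a/Arf-/- mouse astrocytes with and without JAG1 overexpression. Of 23282 gene rows, 363 carried a symbol made of ZFP and a number, with or without a further letter or number. The 289 of these rows with a mean of at least 10 reads over the 6 libraries were taken as the expressed ZFP genes, and are called members here. The other 74 comprised 27 rows with no read in any library and 47 with fewer reads. Since the members were chosen by their read counts, their levels are a description, whereas the rule did not use the group labels. Zfp931, with 7, 10 and 12 reads in the control and 10, 7 and 15 in the JAG1 libraries, lay just inside the limit, as did Zfp951, with 20, 18 and 12 against 9, 4 and 6. Zfp467 (10, 14 and 11 against 12, 6 and 6) and Zfp874a (12, 5 and 16 against 12, 9 and 4) lay just outside it. The mean was under 10 reads in the JAG1 group alone for 12 members and in the control group alone for 2, so these 14 were kept through the group in which they were higher, and counts are also given for the 275 with a mean of 10 reads or more in both groups.

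The cells are a cultured astrocyte line that lacks the Ink4a/Arf tumor suppressor locus, in both groups. Control cells (3 libraries) received the empty vector pcDNA3.1-puro, and JAG1 cells (3 libraries) received pcDNA3.1-JAG1-puro, which expresses the NOTCH ligand JAG1. The genotype label of the control is WT, beside a cell line label of Ink4a -/- in all 6 libraries, and WT was read as without JAG1. Nothing in the labels or the study's methods says whether a group's libraries were separate cultures, transfections or clones, so p-values measure the spread between these libraries, which may be technical. RNA was read from the 3' end of polyadenylated transcripts (QuantSeq), so that a transcript gives about the same number of reads whatever its length, and levels in CPM (counts scaled to 1000000 per library) were compared between genes without division by length.

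Most proteins named ZFP carry arrays of C2H2 zinc fingers, each a short loop held by a zinc ion between a pair of cysteines and a pair of histidines, which read DNA. Many also carry a KRAB domain, which binds TRIM28 (KAP1), and through it the histone methyltransferase SETDB1, HP1 proteins and the NuRD deacetylase complex. KRAB-ZFPs are known for silencing transposable elements and guarding imprinted regions, and their genes lie in clusters that arose by tandem duplication. Other members bear the name but work differently, such as the CCCH proteins of the Zfp36 family, which bind RNA.

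The promoters of some members with large changes are shown, with the motifs of 2 pathways that the study's design touches: that of SMAD factors, and that of RBPJ, the DNA-binding partner of NOTCH receptors, which JAG1 activates. Zfp599, whose log2 fold change of 2.32 was above that of Zfp13 (2.23), is not among them. The sequences run from 250 bases before to 50 bases after a RefSeq transcription start (GRCm38.p6), 5' to 3' on the gene's strand, and capitals mark the SMAD binding element GTCTG or its reverse complement CAGAC. Zfp518a (chr19:40894455-40894754, plus strand) and Zfp13 (chr17:23599438-23599737, minus strand) were higher in JAG1-overexpressing astrocytes, and Zfp941 (chr7:140822129-140822428, minus strand) and Zfp345 (chr2:150485014-150485313, minus strand) were lower.
Zfp518a: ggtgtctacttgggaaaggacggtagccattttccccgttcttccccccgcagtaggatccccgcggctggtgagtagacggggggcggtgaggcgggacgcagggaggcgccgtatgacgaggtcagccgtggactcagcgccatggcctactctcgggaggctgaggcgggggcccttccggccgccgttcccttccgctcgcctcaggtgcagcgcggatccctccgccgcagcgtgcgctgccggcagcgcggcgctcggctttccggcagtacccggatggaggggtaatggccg
Zfp13: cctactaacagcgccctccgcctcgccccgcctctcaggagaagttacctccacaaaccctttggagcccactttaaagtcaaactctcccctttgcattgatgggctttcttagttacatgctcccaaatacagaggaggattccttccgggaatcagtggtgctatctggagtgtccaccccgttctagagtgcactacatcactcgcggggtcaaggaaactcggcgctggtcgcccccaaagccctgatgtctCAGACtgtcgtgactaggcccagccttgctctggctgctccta
Zfp941: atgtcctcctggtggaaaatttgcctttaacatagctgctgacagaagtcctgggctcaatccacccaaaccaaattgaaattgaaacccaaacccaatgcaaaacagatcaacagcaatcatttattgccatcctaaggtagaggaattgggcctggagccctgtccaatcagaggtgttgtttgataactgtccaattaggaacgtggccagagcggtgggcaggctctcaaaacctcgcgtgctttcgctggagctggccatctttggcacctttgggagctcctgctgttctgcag
Zfp345: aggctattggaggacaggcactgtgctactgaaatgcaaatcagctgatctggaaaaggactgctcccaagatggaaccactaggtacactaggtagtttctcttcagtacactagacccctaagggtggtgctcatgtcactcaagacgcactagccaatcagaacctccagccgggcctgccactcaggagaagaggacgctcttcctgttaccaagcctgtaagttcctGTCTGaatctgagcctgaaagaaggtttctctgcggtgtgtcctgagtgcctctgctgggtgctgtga
Zfp13 and Zfp345 each held 1 match, and Zfp518a and Zfp941 none. RefSeq windows were found for 240 of the 289 members, 293 windows in all. The SMAD element was in 48.1% of the members' windows, against 49.6% of the 32851 windows of all genes, and in 46.0% of the windows of lower members and 48.0% of those of higher members. The RBPJ core GTGGGAA or its reverse complement TTCCCAC, which do not overlap the SMAD letters, was in 7.17% of the members' windows and in 6.38% of all windows. By this measure the members' promoters were close to those of other genes, and the shares were not tested. A match of these letters is a description of the sequence and not a binding site.

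The 6 libraries held 14341634 to 20489062 reads on genes, at which 3 reads correspond to between 0.148 and 0.206 CPM. Jag1 was at 8.99, 10.8 and 11.2 CPM in the control and 15.2, 13.6 and 13.8 CPM in the JAG1 libraries, all above the control, with a log2 fold change of 0.46 (SE 0.11, adjusted p = 0.00446, edgeR's quasi-likelihood test). Whether the vector carries the 3' end of mouse Jag1, where these reads fall, is not given in the sources used here. The Pearson correlation of log2 levels over genes was 0.989 to 0.994 within groups and 0.911 to 0.920 between them. The cells had 3 reads or fewer of the astrocyte genes Gfap, Aqp4, Slc1a3 and Slc1a2 in every library, and 6 of the 7 tested astrocyte markers were lower in JAG1-overexpressing astrocytes, while the summed level of the 11 markers was 3202 to 3697 CPM in the control and 3308 to 3373 in the JAG1 libraries, most of it Vim. Markers of other cells were summed likewise. Those of fibroblasts and pericytes were at 504 to 551 against 272 to 319 CPM (5 of 8 tested, 1 higher and 4 lower; Lum, Rgs5 and Cspg4 at 3 reads or fewer), and those of neurons at 109 to 117 against 63.4 to 66.6 CPM (4 of 8 tested, 1 higher and 3 lower; Rbfox3, Snap25, Syt1 and Nefl at 3 reads or fewer). The markers of microglia summed to at most 6.12 CPM (3 of 8 tested, 1 higher and 1 lower), those of oligodendrocytes to at most 3.27 CPM (2 of 8 tested, 1 lower) and those of endothelium to at most 0.322 CPM (none of 6 tested) in any library. The part of these markers in the results on ZFP genes was not tested, and in RNA from a whole culture fewer cells of a type and less RNA per cell cannot be told apart.

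ZFP genes fell more often than they rose. In JAG1-overexpressing astrocytes, 116 of the 289 members (40.1%) were lower and 24 (8.30%) were higher at an adjusted p under 0.05 (edgeR's quasi-likelihood test, Benjamini-Hochberg over all 11712 genes tested). Of all genes tested, 27.7% were lower and 27.4% higher, nearly the same share in both directions. Calls in either direction came to 140 members, and to 55.1% of all genes. All 289 members passed the filter on low counts. The log2 fold change, JAG1 minus control, was below 0 for 217 members (75.1%), with a median of −0.29 and quartiles at −0.63 and −0.00, whereas the median of all genes tested was 0.00. A change of at least 2-fold was called lower in 26 members (9%) and higher in 4 (1.38%), beside 8.49% and 5.46% of all genes. The share of large falls was thus near that of all genes, and only the share of large rises was smaller. Of the 275 members with a mean of 10 reads or more in both groups, 108 were lower (39.3%) and 23 higher (8.36%), against 26.2% and 27.3% of all tested genes with that property. Changes of at least 2-fold were called lower in 18 of these members and higher in 3, against 628 and 421 of the 10979 tested genes with that property. The large falls that drop out here include Zfp941, Zfp345, Zfp647, Zfp300 and Zfp781, and the rise that drops out is Zfp518a. All JAG1 libraries lay below all control libraries for 134 members and above them for 30, where the shares among all genes were 30.9% and 31.1%. With 3 libraries in each group, an exact permutation test of a single gene cannot give a two-sided p under 0.1.

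The total of ZFP transcripts, a further description of the same values, was lower too. The members summed to 5447, 5431 and 5379 CPM in the control libraries and to 4834, 4786 and 4714 CPM in the JAG1 libraries. The groups did not overlap, and the mean was 11.8% lower in JAG1-overexpressing astrocytes (5419 ± 35.5 against 4778 ± 60.4 CPM, SD, n = 3). Abundant members weigh most in this sum. Of the 5 highest, Zfp428 (219 against 131 CPM), Zfp740 (184 against 100 CPM) and Zfp219 (318 against 252 CPM) had lower means. Zfp91 was higher (127 against 216 CPM), and Zfp106 was at 168 against 171 CPM.

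**Figure D1:**
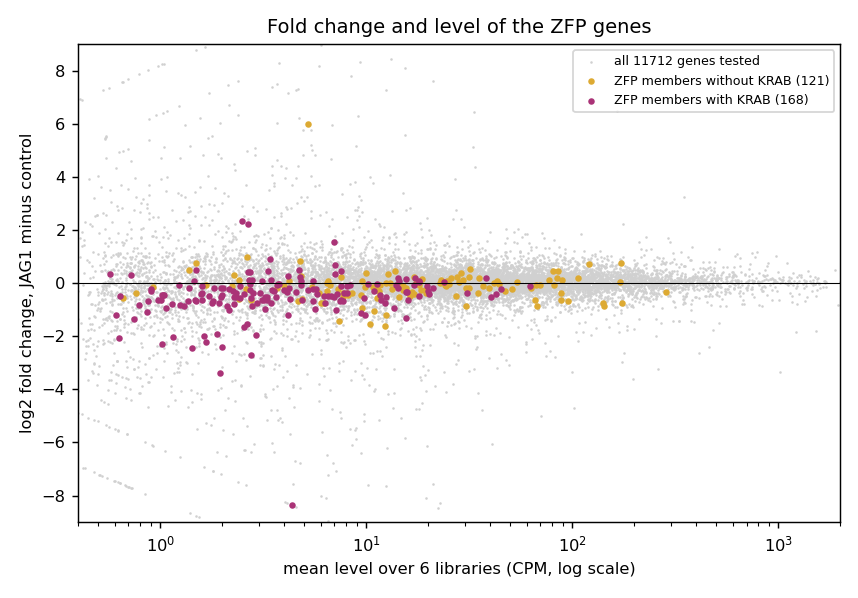
Log2 fold change (JAG1 minus control) against the mean level over the 6 libraries (CPM, log scale) for all 11712 genes tested in grey, with the 168 members with a KRAB domain in purple and the 121 without in yellow; genes beyond the axes are not drawn. The members lie below 0 in 217 of 289 cases, and Zfp518a (5.98) and Zfp941 (−8.36) stand apart from the others.

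Members were scarce transcripts, with a median level of 6.66 CPM (range 0.567 to 285.0) beside 22.3 CPM for all genes tested. Calls were fewer at low levels, where 51.8% of all tested genes below 3 CPM were not called against 40.8% of those above 30 CPM. Within ranges of level, members were still called lower more often than the genes around them. Below 3 CPM, 32 of 88 members were lower (36.4%) and 4 higher, against 29.2% and 19% of all tested genes at that level. Between 3 and 10 CPM, 42 of 88 were lower (47.7%) and 8 higher, against 29.2% and 24.9%. Between 10 and 30 CPM, 25 of 70 were lower (35.7%) and 4 higher, against 26.7% and 26.6%. Above 30 CPM, 17 of 43 were lower (39.5%) and 8 higher (18.6%), against 27.2% and 32.0%. The low share of rises was thus present in each of these 4 ranges and was highest, at 18.6%, among the most abundant members.

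The members were then divided by protein. A KRAB domain was found in 168 members by a profile search of translated transcripts, and 121 had none. KRAB members had a median of 12 C2H2 fingers (range 0 to 30), and members without KRAB had 7 (0 to 36). KRAB members were the scarcer ones, with a median level of 3.37 CPM against 15.1 CPM.

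Of the KRAB members, 74 (44.0%) were lower and 9 (5.36%) higher, against 27.7% and 27.4% of all genes. Their median log2 fold change was −0.42, and 137 values (81.5%) lay below 0. Of the members without KRAB, 42 (34.7%) were lower and 15 (12.4%) higher, and 80 values lay below 0 (median −0.13). The difference between both classes was not tested. The summed level of KRAB members fell from 1260 ± 8.61 to 1016 ± 21.7 CPM, which is 19.4% lower, and that of the other members from 4159 ± 44.1 to 3763 ± 39.0 CPM, which is 9.53% lower (SD, n = 3). A fall of at least 2-fold was called in 21 of the 168 KRAB members and in 5 of the 121 others, beside 8.49% of all genes. Of the 156 KRAB members with a mean of 10 reads or more in both groups, 13 had such a fall, against 628 of the 10979 tested genes with that property. Below 3 CPM it was called in 15 of 75 KRAB members and in 445 of the 1833 genes tested at that level.

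**Figure D2:**
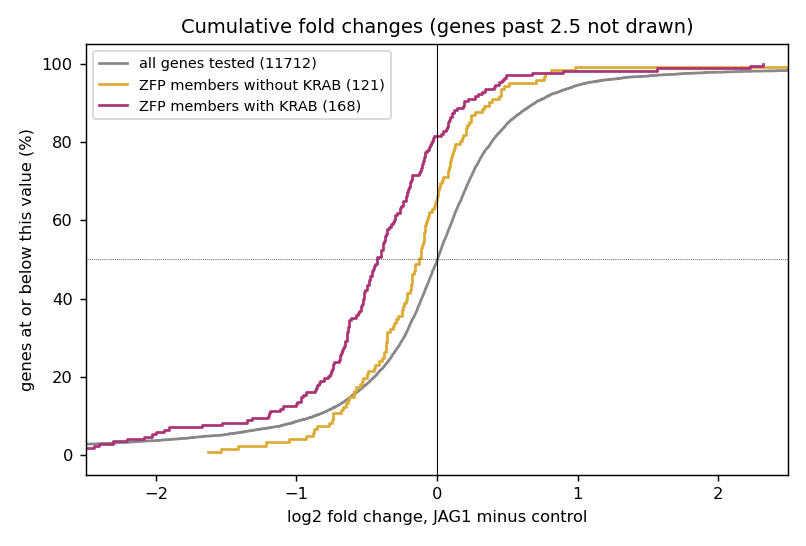
Cumulative share of genes (%) at or below each log2 fold change, JAG1 minus control, for all genes tested (grey), members without KRAB (yellow) and members with KRAB (purple); the dotted line marks the median. The curve of the KRAB members crosses the median at −0.42, that of the other members at −0.13 and that of all genes at 0.00.

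The number of fingers, which sets how long a DNA sequence the protein can read, also varied among the members. The counts are to be read against the 27.7% lower and 27.4% higher among all genes. Of the 100 members with 10 to 14 fingers, 52 were lower and 3 higher (median −0.44). Of the 87 with 5 to 9 fingers, 27 were lower (31%, near the share of all genes) and 13 higher (14.9%, median −0.16). Members with 15 or more fingers (56) gave 20 lower (35.7%) and 2 higher (3.57%). Those with 4 or fewer (46) gave 17 lower (37%) and 6 higher (13%). Among KRAB members alone, 42 of the 78 with 10 to 14 fingers were lower (53.8%) and 1 higher (1.28%). Of the 41 KRAB members with 5 to 9 fingers, 14 were lower (34.1%) and 6 higher (14.6%). These differences were not tested.

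Single members at the ends of the range changed far more than the family. Zfp518a, which has no KRAB domain, rose the most: it was at 0.198, 0.107 and 0.157 CPM in the control and at 10.8, 10.4 and 9.48 CPM in the JAG1 libraries, that is 9 reads in all against 523. The ratio of the reads per library size was 66.0 (95% exact interval 34.5 to 145.2, which covers counting error only), and the log2 fold change was 5.98 (SE 0.23, adjusted p = 3.79e-09, edgeR's quasi-likelihood test). DESeq2, an alternative method, gave 6.04 with a wider SE of 0.52. The gene was near the limit of 3 reads in every control library and well above it in every JAG1 library. It lies at chr19:40894031-40917947, on a chromosome on which most genes were higher, as described further on.

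Zfp941 was its counterpart. This KRAB-ZFP gene, at chr7:140807453-140822201, had 202, 142 and 160 reads in the control libraries (9.97, 7.62 and 8.37 CPM) and 0, 1 and 0 reads in the JAG1 libraries, and was the only member with 3 reads or fewer in every library of a group. The ratio was 443.7 with a 95% exact interval from 79.3 to 17561, and the fitted log2 fold change, which depends on the prior count, was −8.36 (SE 0.42, adjusted p = 2.60e-08, edgeR's quasi-likelihood test). This SE is derived from the F statistic of the test and is too narrow a measure at so few reads. DESeq2 gave −8.68 with an SE of 1.20. Without JAG1 replicate 2, which held that read, the fitted value was −10.36, and without JAG1 replicate 1 it was −7.79. In JAG1-overexpressing astrocytes its transcript was thus not detectable in 2 of the 3 libraries at this depth. The mean level of Zfp941 was 8.66 CPM in the control and 4.34 CPM over all 6 libraries. On the latter measure the median of the KRAB members was 3.37 CPM.

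Among the rises, 3 further members changed by at least 2-fold, and all 3 carry KRAB. Zfp599 went from 0.741, 1.13 and 0.628 CPM to 4.39, 4.2 and 3.89 CPM, with a log2 fold change of 2.32 (SE 0.24, adjusted p = 8.93e-06). Zfp13 went from 1.14, 0.698 and 0.942 CPM to 4.09, 4.4 and 4.68 CPM (2.23, SE 0.22, adjusted p = 6.58e-06). The JAG1 libraries of both genes lay above every control library by a wide margin. Zfp764 rose from 3.85, 3.38 and 3.30 CPM to 11.0, 9.36 and 10.8 CPM (1.56, SE 0.13, adjusted p = 2.06e-06), again without overlap. The last 300 bases of its neighbour Zfp747 match a stretch of a Zfp764 transcript, while those of Zfp764 match no other gene at the limit used. Zfp747 was at 5.43, 5.58 and 5.28 against 8.92, 8.33 and 8.75 CPM (0.67, adjusted p = 0.000468). All adjusted p-values of single genes here and below are from edgeR's quasi-likelihood test.

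The next rises were smaller. Zfp2, a finger protein without KRAB, was at 1.43, 1.4 and 2.46 CPM in the control and 3.39, 3.44 and 3.64 CPM in the JAG1 libraries (0.98, SE 0.24, adjusted p = 0.00433). Zfp661, a KRAB-ZFP, was at 2.67, 1.83 and 2.62 against 3.99, 5.23 and 4.13 CPM (0.89, SE 0.20, adjusted p = 0.00295). Neither gene's groups overlapped, but the 3 control values of Zfp2 were spread over more than the 3 JAG1 values. Zfp395, a hypoxia-responsive factor, was at 4.54, 2.58 and 3.19 against 6.58, 6.81 and 4.80 CPM (0.81, SE 0.22, adjusted p = 0.00793). Zfp296, which is known from pluripotent stem cells, was at 0.988, 1.18 and 1.15 against 2.24, 1.86 and 1.52 CPM (0.77, SE 0.26, adjusted p = 0.0255). The lowest JAG1 library of each lay close to the highest control library, and the call of Zfp296 was lost by DESeq2 (adjusted p = 0.0899) and in 4 of the 6 fits that left out a library (adjusted p = 0.052 to 0.117 without control replicate 1 or 2 or JAG1 replicate 1 or 2). Of the 8 largest rises among called members with separate groups and a mean of at least 1 CPM, 4 were KRAB members.

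The 8 largest falls among called members with separate groups and a mean of at least 1 CPM were all KRAB members. Zfp786 (−2.08), which did not meet all of these conditions, fell more than the last of them. After Zfp941, Zfp345 fell from 3.60, 3.81 and 3.24 CPM to 0.349, 0.344 and 0.304 CPM (−3.39, SE 0.26, adjusted p = 9.96e-07). Zfp287 fell from 5.14, 4.4 and 4.71 CPM to 0.648, 0.894 and 0.668 CPM (−2.70, SE 0.22, adjusted p = 1.27e-06). The JAG1 libraries of Zfp345 held 5 to 7 reads each and those of Zfp287 11 to 13, all far below the control. Zfp647 went from 1.63, 2.63 and 2.93 CPM to 0.150, 0.619 and 0.607 CPM (−2.44, SE 0.42, adjusted p = 0.000506). Zfp456 went from 3.90, 3.70 and 2.41 CPM to 0.598, 0.619 and 0.668 CPM (−2.40, SE 0.28, adjusted p = 2.87e-05). The first JAG1 library was the lowest for Zfp647, with 3 reads, and no group overlapped for either gene.

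Zfp300, which lies on the X chromosome, went from 1.93, 1.34 and 1.78 CPM to 0.0997, 0.619 and 0.364 CPM (−2.30, SE 0.44, adjusted p = 0.00107). Its value was −1.78 without JAG1 replicate 1 and −2.90 without JAG1 replicate 2. Zfp882 went from 2.91, 2.58 and 2.72 CPM to 0.498, 0.619 and 0.668 CPM (−2.20, SE 0.26, adjusted p = 2.44e-05). Zfp781 went from 2.07, 1.99 and 1.52 CPM to 0.399, 0.482 and 0.486 CPM (−2.03, SE 0.31, adjusted p = 0.000183). In these genes too, every JAG1 library lay below every control library. The last 300 bases of Zfp345, Zfp287, Zfp456 and Zfp781 match another gene at 95% identity or more over at least 75 bases (for Zfp456 its relatives Rsl1, Zfp429 and Zfp455), so that their reads may have been split or shared, and Gm17039 runs antisense to an exon of Zfp456. Over the family, 51 members had such a match (24 or 47.1% lower, 4 or 7.84% higher). The other 238 had none (92 or 38.7% lower, 20 or 8.4% higher, median −0.25). Of 18 members with an antisense exon, 8 were lower (44.4%) and 2 higher (11.1%). Among all genes 27.7% were lower and 27.4% higher.

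**Figure D3:**
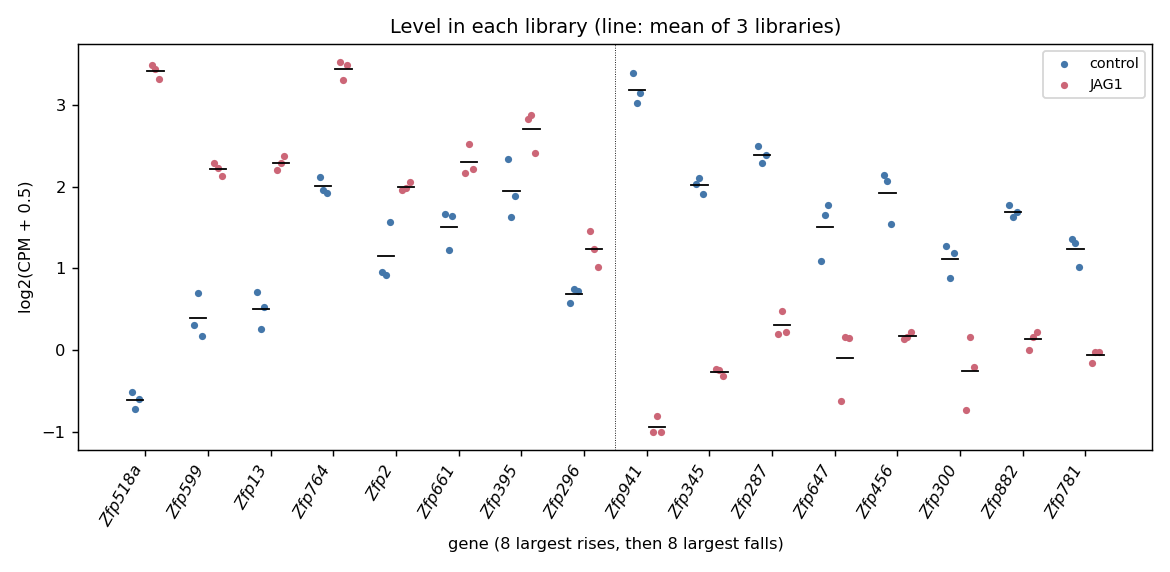
Level of the 8 members with the largest rises (left of the dotted line) and the 8 with the largest falls (right) in each library, as log2(CPM + 0.5), with control in blue, JAG1 in red and a line at the mean of 3 libraries. They were taken from called members with separate groups and a mean of at least 1 CPM, and the groups lie furthest apart for Zfp518a and Zfp941.

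Among the most abundant members, changes were moderate and went both ways. Zfp219, a transcriptional partner of SOX9 in cartilage, was at 333, 307 and 314 CPM in the control and at 246, 281 and 230 CPM in the JAG1 libraries (−0.34, SE 0.07, adjusted p = 0.0019). Zfp428 was at 237, 219 and 200 against 125, 127 and 142 CPM (−0.74, SE 0.07, adjusted p = 7.02e-06). Both were lower in every JAG1 library. Zfp740 fell from 185, 188 and 180 CPM to 105, 97.0 and 98.6 CPM (−0.88, SE 0.05, adjusted p = 1.19e-07). Zfp91, a ubiquitin ligase of the noncanonical NF-κB pathway, rose from 118, 132 and 131 CPM to 221, 213 and 213 CPM (0.76, SE 0.06, adjusted p = 7.08e-07). Zfp740 lies on chromosome 15 and Zfp91 on chromosome 19, and each moved the way most genes of its chromosome did. Zfp106, an RNA-binding protein, was at 171, 174 and 160 against 176, 168 and 169 CPM, and its groups overlapped (0.02, SE 0.05, adjusted p = 0.72). In order of mean level these 5 genes were Zfp219, Zfp428, Zfp91, Zfp106 and Zfp740 over all libraries, while in the control Zfp740 stood above Zfp106 and Zfp91, and in the JAG1 group Zfp91 stood above Zfp106, Zfp428 and Zfp740.

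Members whose function is known in some detail were grouped into lists of 2 to 9 tested genes, whose counts are to be read against the 27.4% higher and 27.7% lower among all genes. In the CCCH list, Zfp36l1, which binds AU-rich elements and brings on the decay of mRNAs, fell from 108, 112 and 102 CPM to 71.2, 66.5 and 69.9 CPM without overlap (−0.63, SE 0.06, adjusted p = 5.09e-06). Its relative Zfp36 was at 7.46, 8.75 and 11.1 against 7.13, 6.40 and 7.23 CPM and passed narrowly (−0.39, adjusted p = 0.0494), Zfp36l2 did not pass (0.11, adjusted p = 0.205), and Zfp36l3 had 3 reads or fewer in every library. In the list of large nuclear proteins, 2 of 9 members were higher and 1 lower, that is 33.3% called against 55.1% of all genes. Beside Zfp91, Zfp335, a subunit of histone H3 lysine 4 methyltransferase complexes needed by neural progenitors, rose from 29.7, 23.9 and 25.3 CPM to 35.3, 42.2 and 35.3 CPM (0.51, adjusted p = 0.00134). Zfp326, which couples transcription to splicing in the DBIRD complex, fell from 93.4, 85.6 and 83.0 CPM to 50.6, 47.8 and 44.3 CPM (−0.88, SE 0.07, adjusted p = 1.65e-06). No library of one group reached the other in Zfp335 or Zfp326.

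Of the 3 finger proteins of the Z3 complex, which is built around ZMYND8, Zfp532 was at 5.38, 5.96 and 6.17 against 3.74, 4.54 and 3.40 CPM (−0.59, SE 0.15, adjusted p = 0.00722). Zfp687 was lower as well (−0.30, adjusted p = 0.00634), and Zfp592 did not pass (0.04, adjusted p = 0.659). Among KRAB-ZFPs known for imprints and retroelements, Zfp445, a guardian of imprinted methylation, fell from 45.9, 50.0 and 50.6 CPM to 41.5, 42.5 and 39.9 CPM (−0.24, SE 0.07, adjusted p = 0.0106). Zfp932 was higher (0.49, adjusted p = 0.0437), whereas Zfp809, which silences murine leukemia virus, had values of −0.06 (adjusted p = 0.716) and Zfp568, which restrains Igf2, of 0.19 (adjusted p = 0.136). Zfp57, with 3 to 17 reads in a library, was below the limit for members and did not pass. Zfp110, which interacts with the neurotrophin receptor p75, was at 6.17, 5.96 and 6.43 against 7.03, 8.12 and 8.44 CPM (0.34, SE 0.12, adjusted p = 0.0376), a call that was lost in 8 of the alternatives tried (adjusted p = 0.0514 to 0.122), among them each fit that left out a library except JAG1 replicate 1, and Zfp369 did not pass (−0.67, adjusted p = 0.165).

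The remaining lists held no call. Zfp148, a GC-box factor, was at 53.8, 51.5 and 54.8 against 54.9, 54.3 and 54.8 CPM (0.04, adjusted p = 0.64), and Zfp281, Zfp143 and Zfp410 of the same list did not pass either. Zfp703, of the NLZ family, was at 74.8, 64.9 and 64.9 against 67.9, 61.0 and 64.1 CPM (−0.08, adjusted p = 0.368). The groups of both genes overlapped. Zfp385c was the highest of the ZFP385 list (−0.11, adjusted p = 0.323). Zfp423 and Zfp521, which bind EBF factors, had 9 reads or fewer in every library and were not tested. A few further members of known function were picked after their values were seen: Zfp598, the ubiquitin ligase that senses collided ribosomes, was at 70.9, 71.5 and 72.8 against 96.8, 105 and 93.5 CPM (0.45, adjusted p = 7.19e-05). The ribosome assembly factor Zfp593 was higher (0.46, adjusted p = 6.98e-05) and the ribosome assembly factor Zfp622 lower (−0.65, adjusted p = 1.16e-05). Zfp638, which silences unintegrated DNA, was at 51.6, 58.9 and 55.6 against 52.0, 42.3 and 46.6 CPM, where the groups overlapped (−0.23, adjusted p = 0.0362).

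The position of the members in the genome was examined next. Chromosomes 15 and 19 stood apart over all genes: of 458 tested genes on chromosome 15, 345 were lower and 32 higher (median −0.53), and of 422 on chromosome 19, 313 were higher and 31 lower (median 0.61). On chromosome 15, 9 of the 10 members were lower and none higher, with a median of −0.76. Besides Zfp647 and Zfp740 these were Zfp41 (−1.53), Zfp707 (−1.0), Zfp623 (−0.77), Zfp706 (−0.75), Zfp622 (−0.65), Zfp251 (−0.50) and Zfp7 (−0.38), and Zfp385a did not pass (−0.58, adjusted p = 0.275). All 3 members of chromosome 19, Zfp518a, Zfp91 and Zfp950 (0.46, with overlap between the groups), were higher. Without both chromosomes, 107 of 276 members were lower (38.8%) and 21 higher (7.61%, median −0.26), against 26.5% lower and 26.5% higher among the other 10832 genes. Falls thus outnumbered rises off these chromosomes as well. The cause of the shifts of chromosomes 15 and 19 was not tested.

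Chromosome 7 held the most members, 71, of which 27 were lower (38.0%) and 4 higher (5.63%, median −0.28), against 27.3% and 23.7% of all tested genes of that chromosome. Of the 40 members of chromosome 17, 14 were lower (35%) and 3 higher (7.5%, median −0.35), against 21% and 25.4%. Of the 25 members of chromosome 13, 9 were lower (36.0%) and 2 higher (8%, median −0.54), against 30% and 24.9%, and the median of all tested genes there was −0.12. On chromosome 8, 10 of 18 members were lower (55.6%) and none higher, against 27.5% and 26.1%. None of the 4 members of chromosome 16 was called, against 26.6% lower and 29.0% higher. Every chromosome except 19 had a median below 0.

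**Figure D4:**
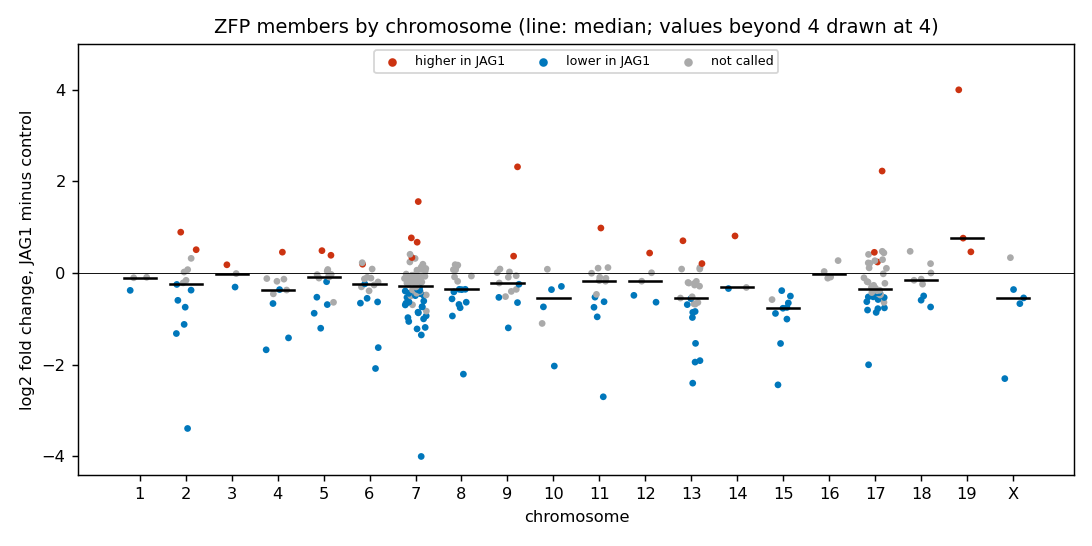
Log2 fold change (JAG1 minus control) of each member by chromosome, in red where higher, in blue where lower and in grey where not called, with a line at the median; Zfp518a and Zfp941 are drawn at the limit of 4. The medians lie below 0 on every chromosome but 19, where all 3 members were higher, and 9 of 10 members were lower on chromosome 15.

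ZFP genes whose starts lie within 1 Mb of each other were joined into clusters. There were 15 clusters with at least 5 members, holding 134 members, and the median log2 fold change was below 0 in each of them. Members of a cluster are related in sequence and neighbours, and are no independent replicates. Counts of calls in the clusters here and below are to be read against the 27.7% lower and 27.4% higher among all genes. The cluster with the most members, 19, all KRAB, lies at chr17:21008941-23599755, with 5 lower and 1 higher (median −0.27), a share of falls near that of all genes. It held both a strong fall and a strong rise: Zfp760 was at 2.17, 1.99 and 3.66 against 0.698, 0.826 and 0.425 CPM (−2.0, SE 0.35, adjusted p = 0.000528), and at its far end was Zfp13 (2.23). A further cluster of that chromosome, at chr17:32765496-33631716, had 7 of 12 members lower and 1 higher (median −0.45), from Zfp81 (1.63, 1.66 and 1.73 against 0.947, 0.963 and 0.85 CPM, −0.86, adjusted p = 0.013) to Zfp952 (0.44, adjusted p = 0.0689, with overlap).

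The cluster at chr13:67038594-67827000 had 15 members, all KRAB, of which 5 were lower and none higher (median −0.54), from Zfp456 (−2.40) to Zfp748, which was at 2.57, 2.47 and 2.67 against 2.44, 2.96 and 3.04 CPM (0.12, adjusted p = 0.597). In the cluster at chr7:29768552-30169775, 5 of 12 members were lower and none higher (median −0.26), from Zfp940 (1.38, 0.752 and 1.05 against 0.199, 0.413 and 0.668 CPM, −1.35, adjusted p = 0.0236) to Zfp420 (0.32, adjusted p = 0.306). The fall of Zfp940 rested on 4 to 28 reads per library, and its call was lost without control replicate 1, JAG1 replicate 1 or JAG1 replicate 2 (adjusted p = 0.0607 to 0.103). All 6 members at chr15:75615200-76925693 were lower (median −0.88), among 42 other tested genes there of which 31 were lower and 2 higher (median −0.50). The cluster at chr7:127233061-127885996, which contains Zfp764 and Zfp747, was the one with 2 rises, beside 4 falls among its 10 members (median −0.08), and Zfp629 was its lowest (−1.22). Of the 21 other tested genes inside it, 8 were higher and 2 lower (median 0.27). The 4 clusters described before the one of chromosome 15 held between 0 and 5 other tested genes each.

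Finally, the proteins with which KRAB-ZFPs work were examined. Of 25 genes on this list, 10 were lower (40%) and 5 higher (20%), against 27.7% and 27.4% of all genes, and the median was −0.01. Calls in either direction thus came to 60% of the list and to 55.1% of all genes. The total of calls was near the background, while falls were more frequent and rises less so. These differences were not tested, and the genes are given one by one. Trim28, the protein that KRAB binds, fell from 162, 158 and 157 CPM to 115, 114 and 119 CPM (−0.46, SE 0.05, adjusted p = 1.46e-05). Setdb1, the histone H3 lysine 9 methyltransferase that TRIM28 recruits, was at 227, 220 and 221 against 307, 242 and 305 CPM (0.36, SE 0.08, adjusted p = 0.00304). Both were separate between the groups, in opposite directions. Atf7ip, the partner that stabilizes SETDB1, fell from 10.2, 9.07 and 9.52 CPM to 5.43, 5.23 and 4.49 CPM (−0.92, SE 0.13, adjusted p = 8.60e-05). Dnmt3b, a de novo DNA methyltransferase, fell from 7.01, 8.32 and 8.84 CPM to 3.14, 3.44 and 2.67 CPM (−1.39, SE 0.16, adjusted p = 1.97e-05). The genes of all HP1 proteins were lower, Cbx5 (−0.73, on chromosome 15), Cbx1 (−0.22) and Cbx3 (−0.15). The largest rises were of Hells, a chromatin remodeler (0.88, SE 0.05, adjusted p = 1.06e-07), which went from 258, 272 and 256 to 501, 459 and 484 CPM, and of the NuRD subunit Mta2 (0.73, SE 0.06, adjusted p = 2.29e-06), which went from 88.0, 94.2 and 102 to 153, 156 and 162 CPM. Both genes lie on chromosome 19.

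**Figure D5:**
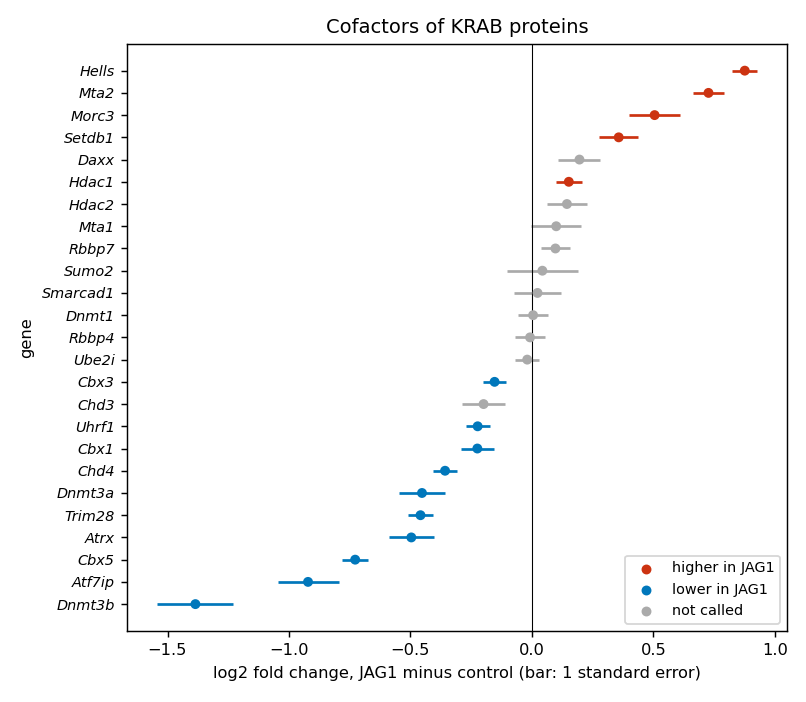
Log2 fold change (JAG1 minus control) of the 25 genes that act with KRAB proteins, each with a bar of 1 standard error (derived from the F statistic of the test), in red where higher, in blue where lower and in grey where not called. Dnmt3b (−1.39), Atf7ip (−0.92) and Trim28 (−0.46) lie to the left, and Hells (0.88), Mta2 (0.73) and Setdb1 (0.36) to the right.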

How the data were processed

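Ink4a/Arf-/- astrocytes with the empty or the JAG1 vector were measured in 3 QuantSeq libraries each, grouped by the sample labels. The authors deposited 1 table per library with raw read counts for 23282 genes and log2 values of normalized counts, whose normalization is not given in the sources used here and which served only as an alternative. The submitters' processing notes name Bowtie2, bedtools, edgeR and GRCm38 (mm10), without versions or roles. The libraries held 14341634 to 20489062 counts, so intervals from read counts cover counting error only.

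The counts were analysed in R 4.3.3 with edgeR 4.0.16. Genes were kept by filterByExpr at its minimum of 10 counts (11712 genes), scaled by TMM and tested between groups by the quasi-likelihood method, with Benjamini-Hochberg adjustment and a threshold of 0.05. Levels are TMM-normalized CPM. SE is the size of the log2 fold change divided by the square root of the F statistic of its test. It is not the SE of a fitted coefficient, and DESeq2 gave a larger one where reads were few, as for Zfp941 (1.20). The fit was also run on simulated data with far fewer changed genes and the same dispersion for all genes. That run does not give the error rates in these data. Members were matched to RefSeq GRCm38.p6 by symbol (287) or synonym (2), and promoters are RefSeq's. KRAB domains were found in translated GENCODE M21 transcripts with HMMER 3.4, by a profile grown from the first 75 residues of Zfp809 (E-value limit 0.001, 4 rounds). C2H2 fingers were counted by their pattern of cysteines and histidines. Shared 3' ends were found with BLAST+ 2.17.0. Strand use in the authors' counting is not given in the sources used here.

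Named genes were Jag1; the 8 largest rises and 8 largest falls among called members with groups that do not overlap and a mean of at least 1 CPM; the 5 most abundant members; called members of role lists that changed at least 1.5-fold, or each list's highest member; the ends of the largest clusters; Trim28, Setdb1 and the largest changes of the KRAB list; and the genes next to the count limit. Others were named after their values were seen. The members, lists and rule were chosen with earlier results of these data known. Alternatives were DESeq2 1.42.0, limma-voom (limma 3.58.1), other normalizations and filters, fold limits, a replicate block, other member limits and leaving out each library.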

Additional observations from a re-analysis of the deposited data

How the results depend on the processing

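The larger number of falls than rises was present under each alternative tried. DESeq2 called 20 members higher and 91 lower (6.92% and 31.5%), beside 2930 and 2997 of all 11712 genes tested. The share of falls was thus closer to that of all genes than in the main fit (40.1% against 27.7%). By limma-voom it was 24 and 114 members, beside 3219 and 3230 of all genes. The authors' log2 values gave 23 and 117, beside 3109 and 3289. Library size alone gave 26 and 113, beside 3323 and 3131. No filter on low counts gave 23 and 117, beside 3388 and 3498 of 16774 genes. A limit of 2-fold left 4 (1.38%) and 26 (9%), beside 5.46% and 8.49% of all genes. A limit of 1.5-fold left 11 (3.81%) and 71 (24.6%), for which the share of all genes was not taken. With upper-quartile normalization the median log2 fold change of the members was −0.31. With a mean count of at least 50 it was −0.23 (20 of 210 members higher, 90 lower), and with at least 100 it was −0.20 (16 of 160 higher, 70 lower). It was −0.26 without chromosomes 15 and 19. By alternatives chosen after seeing the data, it was −0.25 without members that share a 3' end, −0.26 for members with a mean of 10 reads or more in both groups and −0.42 for KRAB members only (9 higher, 74 lower). Leaving out each library in turn gave 17 to 23 members higher, 92 to 112 lower and a median of −0.30 to −0.27. Over all 11712 genes these fits gave 2697 to 3205 higher and 2775 to 3343 lower. Of the members' calls, 16 higher and 80 lower held in all 6 of these fits, which was not counted over all genes.

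Same-numbered control and JAG1 libraries had correlated deviations (0.148, 0.0614 and 0.119), which is too weak for a pairing by number, although each library correlated best with its own number, a hint from the data and not from the design. With a replicate block, 24 members were higher and 113 lower (median −0.29), beside 3380 and 3331 of all 11712 genes. Of the members' 137 calls with the block, 133 were among the 140 made without it. Of 588 values of 42 named genes under alternatives, 568 kept direction and side of the threshold, 17 lost the call and 1 gained it (Zfp952 without control replicate 1, adjusted p = 0.0326). The log2 fold change of Zfp106 turned to −0.00095 with upper-quartile normalization and lay between −0.0218 and 0.0482 over the fits that left out a library (negative without control replicate 3), and did not pass in these. Besides Zfp296, Zfp110 and Zfp940, Zfp81 lost its call, with DESeq2 (adjusted p = 0.0682). The cause of these changes was not tested. Members at a few reads per library limit what can be said: below 3 CPM, 52 of 88 members were not called, which does not show that they did not change.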

Other observations

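Zinc finger genes outside the ZFP name were looked at for comparison, as counts and without a test. Of 44 tested genes that encode a KRAB domain but carry another name, many of them RIKEN or Gm symbols, 12 were lower (27.3%) and 3 higher (6.82%, median log2 fold change −0.14), against 27.7% and 27.4% of all tested genes, so that the share of falls was that of the background. Among them 9130019O22Rik, which shares a 3' end with Zfp747, went from a mean of 0.499 to 3.32 CPM (2.72, SE 0.25, adjusted p = 3.85e-06, edgeR's quasi-likelihood test), and Gm14139 from 0.863 to 0.0940 CPM (−3.05, SE 0.58, adjusted p = 0.00097, by that test). Of 13 Zscan and Zkscan genes, whose proteins join fingers to a SCAN domain, 7 were lower (53.8%) and none higher (median −0.47). Some of these genes are also among the 44 just described, such as Zkscan1 and Zkscan3, which were lower, so both groups overlap. Of 40 Zbtb genes, whose proteins join fingers to a BTB domain, 7 were lower (17.5%) and 8 higher (20%, median 0.11), both below the background. These genes were chosen after the values of the ZFP members were seen.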
